A study of Mus musculus with 7 samples.

Results

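The 7 genes described here encode secreted neurotrophins (Bdnf, Ntf3 and Ntf5) and receptors that bind them or their precursors (Ngfr, Sort1, Ntrk2 and Ntrk3). They were chosen by name from a gene family, with earlier results of these data known, and do not include every gene of it. They are 7 of the 27179 Entrez gene identifiers in the expression table. All 7 were found by their Entrez identifiers, and each had reads in all 7 libraries. They were measured by RNA sequencing in neural crest-derived and other cells of the mouse small bowel and of subcutaneous fat.

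All groups came from Wnt1-Cre;tdTomato mice aged 1 month, which carry a Cre transgene driven by the Wnt1 promoter and the R26R-tdT reporter. Cells with a history of Cre activity, which in these mice are neural crest cells and their descendants, are red fluorescent and were collected by sorting. The adipose groups were neurospheres, from cells kept for 10 days as mixed spheroids, sorted as tdTomato-positive and grown for 10 more days, and tdTomato-positive cells sorted fresh from posterior subcutaneous fat pads. The bowel groups were tdTomato-positive cells sorted fresh from the smooth muscle and myenteric plexus layer, M1 neurospheres (sorted first, then grown for 10 days), tdTomato-positive cells sorted from mixed spheroids after 10 days, and M2 neurospheres (such sorted cells grown for 10 more days). A further bowel group held the tdTomato-negative cells of the mixed spheroids, which carry the same transgenes without having switched on the reporter. The labels name 2 growth factors of the culture medium, epidermal growth factor and basic fibroblast growth factor, and list no neurotrophin among its additions. Each group was a single library from about 50000 cells, pooled equally from 3 mice (2 female and 1 male).

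Neurotrophins are made as precursors that convertases and extracellular proteases cut to mature factors. Mature neurotrophins signal through Trk receptor tyrosine kinases, with BDNF and the Ntf5 product acting on TrkB (Ntrk2) and neurotrophin-3 (Ntf3) mainly on TrkC (Ntrk3). Ngfr encodes p75NTR, a receptor without kinase activity that binds all neurotrophins, and with sortilin (Sort1) binds their precursors. p75NTR is a classical surface marker of neural crest cells, of enteric neural progenitors and of Schwann cells that are immature or have lost their axons, and neurotrophin-3 acting through TrkC is known for its part in the growth of the enteric nervous system.

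In the GRCm38 assembly, Bdnf lies at chr2:109674700-109727043 on the plus strand, Ntf3 at chr6:126101412-126166772 on the minus strand and Ntf5 at chr7:45413695-45417179 on the plus strand. Ngfr lies at chr11:95568818-95587698 on the minus strand and Sort1 at chr3:108283974-108361519 on the plus strand. Ntrk2 lies at chr13:58806472-59133970 on the plus strand and Ntrk3 at chr7:78179986-78581034 on the minus strand. Ngfr, Bdnf and Ntrk2 had the widest contrasts between adipose neurospheres and fresh adipose cells. The genomic sequence just before their annotated starts is therefore shown, 5′ to 3′ on the gene's strand, without bases that fall in an annotated exon. The sequences are from RefSeq (GRCm38.p6), and capitals mark GC boxes (GGGCGG).
Ngfr promoter, chr11:95587736-95587948, minus strand: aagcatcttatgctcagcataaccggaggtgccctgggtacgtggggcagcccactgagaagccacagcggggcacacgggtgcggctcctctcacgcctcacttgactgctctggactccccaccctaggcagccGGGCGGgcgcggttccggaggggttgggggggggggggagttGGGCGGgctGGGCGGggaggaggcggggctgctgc
Bdnf promoter before the first of its 7 listed starts, chr2:109674450-109674699, plus strand: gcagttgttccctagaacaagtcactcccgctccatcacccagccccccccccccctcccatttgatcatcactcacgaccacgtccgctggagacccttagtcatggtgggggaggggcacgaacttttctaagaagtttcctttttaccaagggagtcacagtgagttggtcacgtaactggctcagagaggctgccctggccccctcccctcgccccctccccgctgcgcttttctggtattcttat
Ntrk2 promoter, chr13:58806319-58806471, plus strand: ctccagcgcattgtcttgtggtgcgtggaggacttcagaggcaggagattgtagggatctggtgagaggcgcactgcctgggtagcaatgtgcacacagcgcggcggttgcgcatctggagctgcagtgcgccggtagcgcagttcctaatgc
The full window of 250 bases before the Ngfr start held 4 matches to GGGCGG on either strand, of which 3 are in the stretch shown. Of 32841 mouse promoter windows of that length, 32.7% held at least 1 such match. The Ngfr window had a GC content of 70.4%, higher than 91.2% of windows. The windows of Ntrk2 and of the first Bdnf start held no match to GGGCGG, nor to TATAAA (held by 12.4% of windows), TGANTCA (6.75%), ACAAAG (16.5%) or TGACGTCA (1.55%), searched on both strands. Of the later Bdnf starts, start 2 had 2 matches to GGGCGG and 1 to TGANTCA, start 3 had 1 to ACAAAG and start 4 had 1 to GGGCGG. The start used in these cells was not measured. The GC contents were 62.8% for the Ntrk2 window and 58% for the window of the first Bdnf start, against a median of 52.4% over all windows. A match describes the letters and is not a measured binding site.

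Gene-assigned reads numbered 51885106 to 65301500 per library, and levels are given as CPM, the reads of a gene scaled to the total of its library. The order of libraries for a gene was compared on CPM, and the log2 ratios between groups used TMM, a further scaling between libraries. With 1 library per group there was no replicate and no test across samples, and every interval covers counting error only. Sox10, a transcription factor of the crest lineage and its glia, stood between 98.0 and 899.6 CPM in the 6 tdTomato-positive libraries and at 5.23 CPM in the tdTomato-negative one. The 11 crest and glial markers summed to between 1467 and 8897 CPM in the tdTomato-positive libraries, against 30.3 CPM in the tdTomato-negative library. Other cell types' markers were present as well. The 6 fibroblast markers summed to 11965 CPM in fresh adipose cells and 5077 CPM in fresh bowel cells, and the fresh bowel library also held 24364 CPM of smooth muscle markers and 39335 CPM of pancreatic acinar markers. In such bulk samples, fewer cells of a type and less RNA per cell cannot be told apart.

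**Figure D1:**
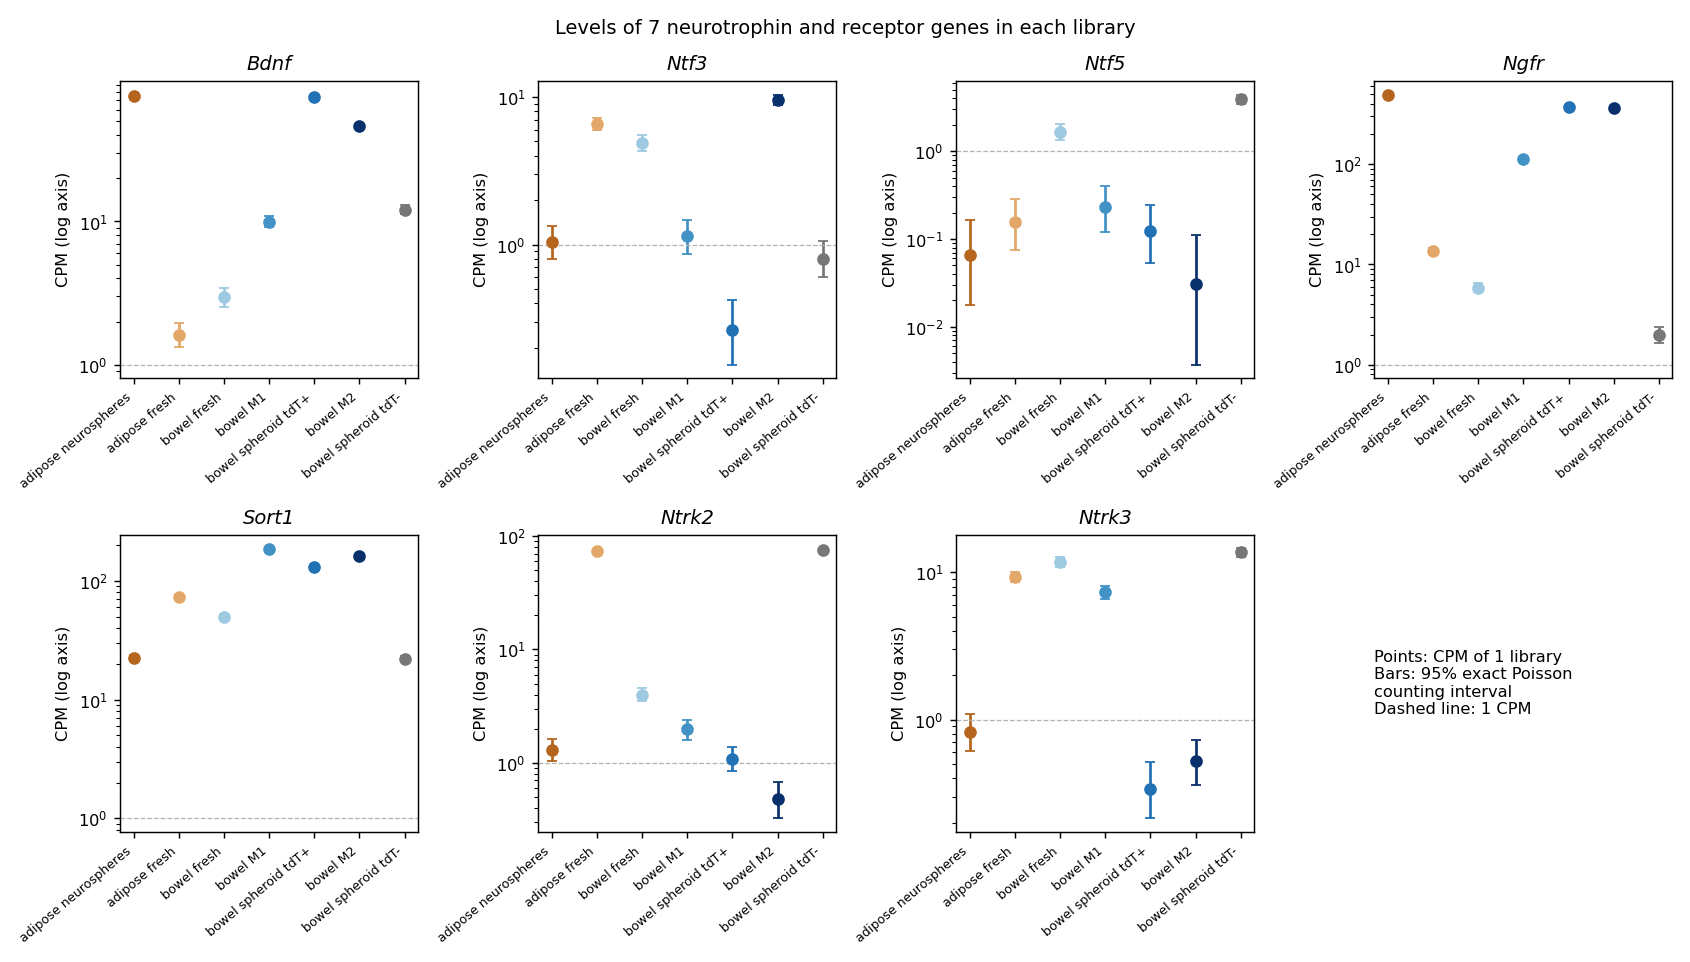
Level of each of the 7 genes in each library, in CPM on a log axis that differs between panels. Points are single libraries and bars are 95% exact Poisson counting intervals. Ngfr stood at 490.3 CPM in adipose neurospheres and at 1.99 CPM in tdTomato-negative spheroid cells, and Ntrk2 at 1.30 CPM in adipose neurospheres and 76.0 CPM in tdTomato-negative spheroid cells.

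Among the ligands, Bdnf, which encodes brain-derived neurotrophic factor, was low in fresh cells and high in most cultures. It had 74.7 CPM in adipose neurospheres and 1.62 CPM in fresh adipose cells. In the bowel it had 2.95 CPM in fresh cells, 9.98 CPM in M1 neurospheres, 73.7 CPM in tdTomato-positive spheroid cells and 46.4 CPM in M2 neurospheres, with 12.1 CPM in tdTomato-negative spheroid cells. The adipose neurospheres and the tdTomato-positive spheroid cells, at the top of this order, did not differ beyond counting error, and both fresh libraries were lowest.

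Ntf3, which encodes neurotrophin-3, stayed below 10 CPM throughout. It had 1.04 CPM in adipose neurospheres and 6.56 CPM in fresh adipose cells. In the bowel it had 4.89 CPM in fresh cells, 1.14 CPM in M1 neurospheres, 0.263 CPM (17 reads) in tdTomato-positive spheroid cells and 9.62 CPM in M2 neurospheres, with 0.804 CPM in tdTomato-negative spheroid cells. M2 neurospheres and both fresh libraries were thus high and the tdTomato-positive spheroid cells lowest. Between them lay M1 neurospheres, adipose neurospheres and tdTomato-negative cells, and neighbours in that order did not differ beyond counting error.

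Ntf5, the other TrkB ligand, reached 1 CPM in 2 libraries only. It had 3.90 CPM (252 reads) in tdTomato-negative spheroid cells and 1.65 CPM (95 reads) in fresh bowel cells. The other 5 libraries held between 2 and 12 reads, or 0.0306 to 0.231 CPM, and neighbours among them did not differ beyond counting error.

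Of the receptors, Ngfr spanned the widest range, 246-fold between its highest and lowest library. It had 490.3 CPM in adipose neurospheres and 13.7 CPM in fresh adipose cells. In the bowel it had 5.88 CPM in fresh cells, 114 CPM in M1 neurospheres, 373 CPM in tdTomato-positive spheroid cells and 365 CPM in M2 neurospheres, with 1.99 CPM in tdTomato-negative spheroid cells. The 4 cultured tdTomato-positive libraries stood apart from the other 3, and all neighbours in the order differed beyond counting error, the tdTomato-positive spheroid cells and M2 neurospheres by 1.02-fold. In adipose neurospheres 270 genes had a higher CPM than Ngfr, against 9039 genes in fresh adipose cells. In M2 neurospheres 422 genes had a higher CPM, against 11492 genes in fresh bowel cells.

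Sort1, which encodes the sorting receptor sortilin, varied least, 8.34-fold across the libraries. It had 22.3 CPM in adipose neurospheres and 73.6 CPM in fresh adipose cells. In the bowel it had 49.6 CPM in fresh cells, 184 CPM in M1 neurospheres, 131 CPM in tdTomato-positive spheroid cells and 160.2 CPM in M2 neurospheres, with 22.1 CPM in tdTomato-negative spheroid cells. The 3 tdTomato-positive bowel cultures were highest, and the lowest pair, adipose neurospheres and tdTomato-negative cells, did not differ beyond counting error in CPM. With TMM scaling that pair stood further apart, at 22.1 CPM in adipose neurospheres and 25.6 CPM in tdTomato-negative cells.

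Ntrk2, which encodes TrkB, had 1.30 CPM in adipose neurospheres and 73.7 CPM in fresh adipose cells. In the bowel it had 3.99 CPM in fresh cells, 1.97 CPM in M1 neurospheres, 1.08 CPM in tdTomato-positive spheroid cells and 0.475 CPM (31 reads) in M2 neurospheres, with 76.0 CPM in tdTomato-negative spheroid cells. Fresh adipose cells and tdTomato-negative spheroid cells were high and did not differ from each other beyond counting error in CPM. The next library, fresh bowel cells, was 18.5-fold below fresh adipose cells. With TMM scaling the high pair stood further apart, at 80.6 CPM in fresh adipose cells and 88.3 CPM in tdTomato-negative spheroid cells.

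Ntrk3, which encodes TrkC, had 0.828 CPM in adipose neurospheres and 9.34 CPM in fresh adipose cells. In the bowel it had 11.8 CPM in fresh cells, 7.32 CPM in M1 neurospheres, 0.340 CPM (22 reads) in tdTomato-positive spheroid cells and 0.521 CPM (34 reads) in M2 neurospheres, with 13.7 CPM in tdTomato-negative spheroid cells. The libraries formed a high group of 4 and a low group of 3, and the low group held the cultures that had passed through mixed spheroids and been sorted as tdTomato-positive. Both Trk genes are known to make kinase-bearing and truncated receptors, and counts per gene do not separate these forms.

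To set levels of different genes beside each other, CPM were divided by the median length of each gene's coding transcripts, or by the length of all its exons. On both scales of CPM per kilobase Ngfr ranked first of the 7 in adipose neurospheres, M1 neurospheres, tdTomato-positive spheroid cells and M2 neurospheres. Among the ligands Bdnf ranked first on both scales in every cultured library. In adipose neurospheres Ngfr had 142 CPM per kilobase of median coding transcript, followed by Bdnf with 19.1. Sort1 ranked first in fresh bowel cells, with 7.28 CPM per kilobase, and Ntrk2 in tdTomato-negative spheroid cells, with 24.9. In fresh adipose cells the first rank depended on the length used, being Ntrk2 by coding transcripts and Sort1 by all exons.

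The comparison within the mixed bowel spheroids asks how tdTomato-positive crest cells differ from their tdTomato-negative neighbours in the same culture. The p75NTR gene was far higher in the crest cells, together with Bdnf and Sort1, and both Trk receptor genes and Ntf5 were lower. A gene was called higher or lower if it differed 4-fold or more and the 95% counting interval of its ratio lay entirely outside 2-fold, among genes with at least 1 CPM in either library. By this size rule 6 of the 7 genes passed, against 19.1% of all measured genes. Ngfr had 373 CPM in tdTomato-positive cells and 1.99 CPM in tdTomato-negative cells, a log2 ratio of 7.28 (interval 7.05 to 7.56). Bdnf had a log2 ratio of 2.36 (2.25 to 2.47) and Sort1 of 2.32 (2.24 to 2.40). Ntrk2 had 1.08 CPM in tdTomato-positive cells and 76.0 CPM in tdTomato-negative cells, a log2 ratio of -6.33 (-6.74 to -6.03). Ntrk3 had a log2 ratio of -5.44 (-6.25 to -4.96), and Ntf5 of -4.88 (-6.45 to -4.22). Ntf3 reached 1 CPM in neither library. The median log2 ratio over all 7 genes, Ntf3 included, was -1.73, which is the Ntf3 ratio itself, beside 0.01 over all measured genes. Of the 6 genes that were measured, 3 were higher and 3 lower. The fibroblast markers, all 6 of which had reads in every library, summed to 541 CPM in the tdTomato-positive and 23590 CPM in the tdTomato-negative cells, and their part in the Trk difference was not tested.

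**Figure D2:**
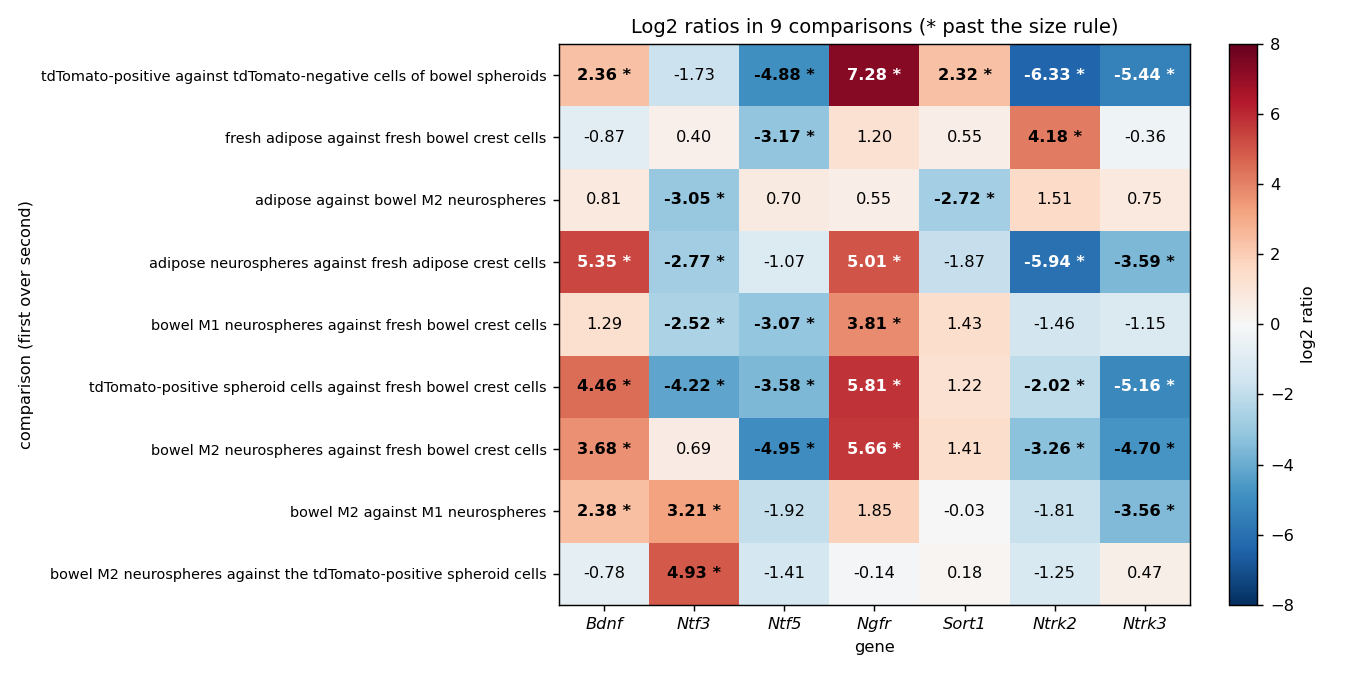
Log2 ratios of the 7 genes in 9 comparisons, the first group named over the second, with red for higher and blue for lower in the first group. Asterisks mark ratios past the size rule, such as Ngfr at 7.28 in tdTomato-positive over tdTomato-negative spheroid cells. Ngfr was past it in all 4 comparisons of cultured with fresh cells.

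Culture of the adipose crest cells was addressed by setting neurospheres against fresh cells. Ngfr and Bdnf rose, and Ntrk2, Ntrk3 and Ntf3 fell. With this, 5 of the 7 genes passed the size rule, against 26.5% of measured genes. Bdnf had 74.7 CPM in adipose neurospheres and 1.62 CPM in fresh adipose cells, a log2 ratio of 5.35 (5.10 to 5.67), and Ngfr had a log2 ratio of 5.01 (4.92 to 5.11). Ntrk2 fell most, to 1.30 CPM in adipose neurospheres against 73.7 CPM in fresh adipose cells (log2 ratio -5.94, interval -6.31 to -5.66). Ntrk3 had a log2 ratio of -3.59 (-4.08 to -3.23) and Ntf3 of -2.77 (-3.21 to -2.42). Sort1 missed the rule at -1.87 (-1.95 to -1.78), and Ntf5 had under 1 CPM in both libraries. The median log2 ratio over all 7 genes, Ntf5 included, was -1.87, beside -0.01 over all measured genes.

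Beside these changes, the fibroblast marker sum was 1395 CPM in adipose neurospheres and 11965 CPM in fresh adipose cells. The crest and glial marker sum was 3024 CPM in adipose neurospheres and 8897 CPM in fresh adipose cells, and Sox10 had 632 CPM in adipose neurospheres and 377 CPM in fresh adipose cells. Ngfr thus stood higher in the library with the lower crest and glial sum, as the plot of marker sums shows. The 6 lymphocyte markers summed to 0.422 CPM in adipose neurospheres, with Cd79b at 0, and to 263 CPM in fresh adipose cells. The part of these cell types in the Ntrk2 and Ngfr ratios was not tested.

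**Figure D3:**
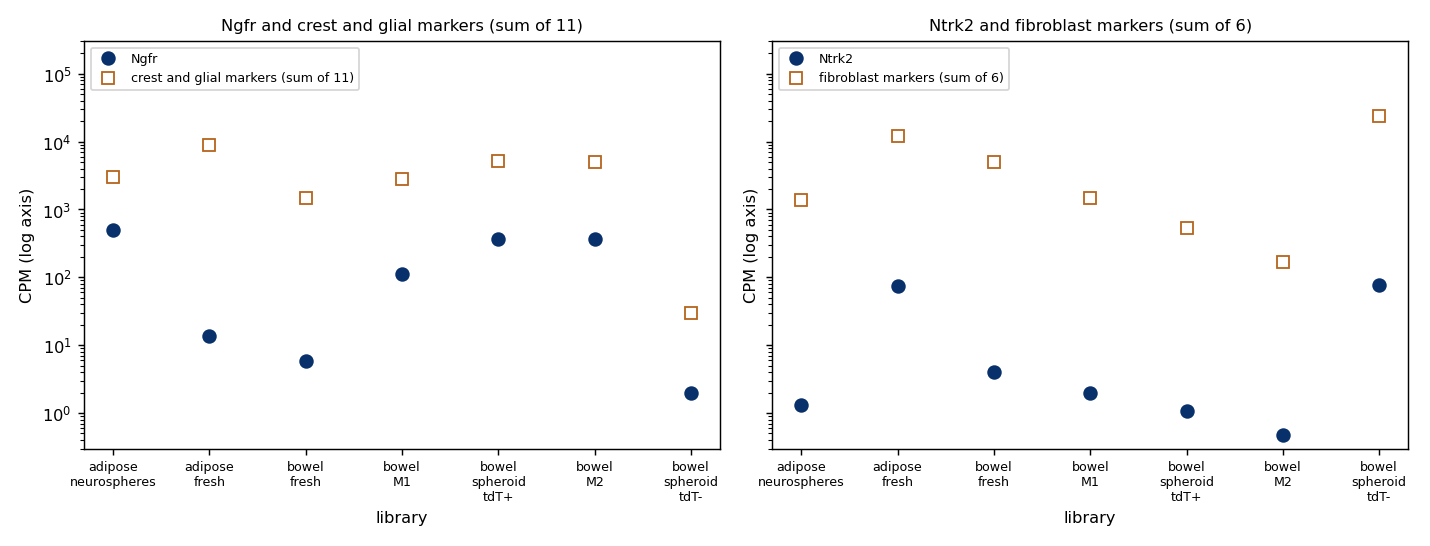
CPM of Ngfr beside the sum of 11 crest and glial markers (left) and of Ntrk2 beside the sum of 6 fibroblast markers (right) in each library, on a log axis. Circles are the receptor gene and squares the marker sum. Fresh adipose cells held 8897 CPM of crest and glial markers with 13.7 CPM of Ngfr, and fresh bowel cells held 5077 CPM of fibroblast markers with 3.99 CPM of Ntrk2.

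The 3 bowel cultures of tdTomato-positive cells were each set against the same fresh bowel library, so that the comparisons are not independent. Ngfr rose in each, with log2 ratios of 3.81 (3.66 to 3.98) in M1 neurospheres, 5.81 (5.66 to 5.97) in tdTomato-positive spheroid cells and 5.66 (5.52 to 5.83) in M2 neurospheres. Bdnf rose in tdTomato-positive spheroid cells, with a log2 ratio of 4.46 (4.25 to 4.70), and in M2 neurospheres, with 3.68 (3.47 to 3.92), and had 1.29 (1.05 to 1.56) in M1 neurospheres, short of the rule. Sort1 had log2 ratios of 1.43, 1.22 and 1.41 in M1 neurospheres, tdTomato-positive spheroid cells and M2 neurospheres, all short of the rule. All 7 genes reached 1 CPM in at least 1 library of each comparison. Of them, 3 passed for M1 neurospheres, against 22.9% of measured genes, 6 for tdTomato-positive spheroid cells, against 27.0%, and 5 for M2 neurospheres, against 26.9%.

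Both Trk genes fell in the 2 cultures that passed through mixed spheroids. Ntrk3 had log2 ratios of -5.16 (-5.97 to -4.68) in tdTomato-positive spheroid cells and -4.70 (-5.33 to -4.29) in M2 neurospheres, and of -1.15 (-1.34 to -0.97) in M1 neurospheres, where it did not pass. Ntrk2 had log2 ratios of -2.02 (-2.46 to -1.66) in tdTomato-positive spheroid cells and -3.26 (-3.95 to -2.81) in M2 neurospheres, and of -1.46 in M1 neurospheres. The call for Ntrk2 in tdTomato-positive spheroid cells was lost with scaling by total reads, where the log2 ratio was -1.85. With a filter at 5 CPM, which Ntrk2 and Ntf3 do not reach in fresh bowel cells, the Ntrk2 calls in both cultures and the Ntf3 calls in M1 neurospheres and tdTomato-positive spheroid cells were lost. Ntf3 fell in M1 neurospheres, with a log2 ratio of -2.52 (-2.99 to -2.15), and in tdTomato-positive spheroid cells, with -4.22 (-5.19 to -3.68), and had 0.69 (0.49 to 0.90) in M2 neurospheres. Ntf5, at 95 reads in the fresh library, fell in all 3, with -3.07 in M1 neurospheres, -3.58 in tdTomato-positive spheroid cells and -4.95 (-9.10 to -4.14, on 2 reads) in M2 neurospheres.

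The fresh bowel library stood apart in its markers of other cells. Its smooth muscle markers summed to 24364 CPM, against 82.3 CPM or less in the 3 cultures, and its macrophage markers to 4080 CPM, against 1343 CPM in M1 neurospheres, 51.1 CPM in tdTomato-positive spheroid cells and 56.7 CPM in M2 neurospheres. Mesothelial markers summed to 1319 CPM in fresh bowel cells and 65.0 CPM in M1 neurospheres. The crest and glial sum was 1467 CPM in fresh bowel cells, 2787 CPM in M1 neurospheres, 5236 CPM in tdTomato-positive spheroid cells and 4935 CPM in M2 neurospheres, and its part in the rise of Ngfr was not tested. Fibroblast markers summed to 5077 CPM in fresh bowel cells, 1465 CPM in M1 neurospheres, 541 CPM in tdTomato-positive spheroid cells and 171 CPM in M2 neurospheres, with 3, 5 and 6 of 6 lower in these cultures. Neuronal markers summed to 1916 CPM in fresh bowel cells, 1590 CPM in M1 neurospheres, 3708 CPM in tdTomato-positive spheroid cells and 3524 CPM in M2 neurospheres. Of 10 neuronal markers, 4 were lower and 0 higher in M1 neurospheres. In tdTomato-positive spheroid cells 7 were lower and 1 higher, and in M2 neurospheres 5 were lower and 1 higher. The higher one was Gap43, with 212 CPM in fresh bowel cells, 3093 CPM in tdTomato-positive spheroid cells and 2917 CPM in M2 neurospheres. Among the lower ones was Prph, a neuronal intermediate filament gene, with 328 CPM in fresh bowel cells. It had 12.1 CPM in M1 neurospheres, 1.30 CPM in tdTomato-positive spheroid cells and 2.21 CPM in M2 neurospheres. The part of these markers in the Trk ratios was not tested.

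Between the tissues, tdTomato-positive cells sorted fresh from fat differed from those sorted fresh from bowel most in Ntrk2 among the 7 genes. All 7 genes were measured and 2 passed, against 18.5% of measured genes. Ntrk2 had 73.7 CPM in fresh adipose cells and 3.99 CPM in fresh bowel cells, a log2 ratio of 4.18 (3.999 to 4.39). Ntf5, on 10 reads in fresh adipose cells and 95 in fresh bowel cells, had a log2 ratio of -3.17 (-4.52 to -2.48). Ngfr had 1.20 (1.02 to 1.39), Sort1 0.55, Ntf3 0.40, Ntrk3 -0.36 and Bdnf -0.87, none of which passed. Fibroblast markers summed to 11965 CPM in fresh adipose cells and 5077 CPM in fresh bowel cells, but the list was mixed (median log2 ratio 0.54). Its 3 collagen genes were higher past the rule. Dcn, Lum and Pdgfra did not pass and had lower CPM in fresh adipose cells, Dcn with 993 CPM against 2308 CPM in fresh bowel cells. Lymphocyte markers summed to 263 CPM in fresh adipose cells and 14.7 CPM in fresh bowel cells. Smooth muscle markers summed to 302 CPM in fresh adipose cells and 24364 CPM in fresh bowel cells. Pancreatic acinar markers summed to 2.33 CPM in fresh adipose cells and 39335 CPM in fresh bowel cells. Neuronal markers, all 10 of them lower, summed to 96.9 CPM in fresh adipose cells and 1916 CPM in fresh bowel cells. Crest and glial markers, 5 of 11 higher and 1 lower, summed to 8897 CPM in fresh adipose cells and 1467 CPM in fresh bowel cells. The part of all these markers in the Ntrk2 ratio was not tested.

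After culture through mixed spheroids, adipose neurospheres were set against bowel M2 neurospheres. 2 of the 7 genes passed, both lower in adipose neurospheres, against 14.0% of measured genes in either direction. Sort1 had 22.3 CPM in adipose neurospheres and 160.2 CPM in bowel M2 neurospheres, a log2 ratio of -2.72 (-2.80 to -2.64), and Ntf3 had 1.04 CPM in adipose neurospheres and 9.62 CPM in bowel M2 neurospheres (log2 ratio -3.05, interval -3.48 to -2.72). Ngfr had a log2 ratio of 0.55 (0.52 to 0.57) and Bdnf of 0.81 (0.74 to 0.88), so that both were within 2-fold between these libraries. Ntrk2 had 1.51 (0.96 to 2.22), and Ntf5 and Ntrk3 had under 1 CPM in both libraries. Several of these ratios depended on the bowel culture. Against M1 neurospheres, adipose neurospheres were higher past the rule in Bdnf (log2 ratio 3.19, interval 3.07 to 3.33) and Ngfr (2.40, 2.36 to 2.44) and lower in Ntrk3 (-2.80, -3.30 to -2.43). The Ntf3 ratio was 0.16 (-0.37 to 0.70) against M1 neurospheres and 1.87 (1.20 to 2.85) against tdTomato-positive spheroid cells. Sort1 was lower in adipose neurospheres against each, with -2.75 against M1 neurospheres and -2.54 against tdTomato-positive spheroid cells.

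The bowel culture methods differed in 3 of the 7 genes, against 8.57% of measured genes. M2 neurospheres were higher than M1 neurospheres in Ntf3, with a log2 ratio of 3.21 (2.87 to 3.66), and in Bdnf, with 2.38 (2.25 to 2.53), and lower in Ntrk3, with -3.56 (-4.19 to -3.13). Ngfr had 365 CPM in M2 neurospheres and 114 CPM in M1 neurospheres, a log2 ratio of 1.85 (1.81 to 1.90) that missed the rule, and Sort1 had -0.03 (-0.07 to 0.01). Ntf5 had under 1 CPM in both libraries. Set against tdTomato-positive spheroid cells, the kind of cell they were grown from, M2 neurospheres differed in 1 gene, Ntf3, against 6.94% of measured genes. Ntf3 had 628 reads in M2 neurospheres and 17 in the tdTomato-positive spheroid cells, a log2 ratio of 4.93 (4.39 to 5.87). Ntf5 and Ntrk3 had under 1 CPM in both libraries. Neuronal markers summed to 3524 CPM in M2 neurospheres, 3708 CPM in tdTomato-positive spheroid cells and 1590 CPM in M1 neurospheres, and most of each of the first pair of sums was Gap43, a growth-associated gene, with 2917 CPM in M2 neurospheres and 3093 CPM in tdTomato-positive spheroid cells. Of 9 neuronal markers measured in M2 neurospheres over tdTomato-positive spheroid cells, 3 were higher and 0 lower (median log2 ratio 1.33). Elavl4, a neuronal RNA-binding protein gene, had 125 CPM in M2 neurospheres and 11.5 CPM in tdTomato-positive spheroid cells, and Syt1, a synaptic vesicle protein gene, had 41.1 CPM in M2 neurospheres and 3.59 CPM in tdTomato-positive spheroid cells. The bowel interstitial cell markers summed to 199.6 CPM in M2 neurospheres and 34.3 CPM in tdTomato-positive spheroid cells. Etv1 made up 198 CPM of the M2 sum, and Kit had 1.10 CPM there. Of these 3 markers 1 was higher, Etv1, and 1 was lower, Ano1. Ano1 had 0.383 CPM in M2 neurospheres and 4.36 CPM in tdTomato-positive spheroid cells. The part of the neuronal and interstitial cell markers in the Ntf3 ratio was not tested. In M2 over M1 neurospheres, all 6 fibroblast markers were lower, with sums of 171 CPM in M2 neurospheres and 1465 CPM in M1 neurospheres, and so were all 5 mesothelial markers, with Upk3b at 0 in M2 neurospheres. Of 6 macrophage markers 4 were lower, with sums of 56.7 CPM in M2 neurospheres and 1343 CPM in M1 neurospheres, and of 10 neuronal markers 1 was higher and 3 were lower. Their part in the Ntrk3 ratio was not tested.

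The balance of p75NTR to Trk reads separated cultured crest cells from the rest. Ngfr reads were 231 times the summed Ntrk2 and Ntrk3 reads in adipose neurospheres (95% counting interval 194 to 276) and 0.165 times (0.154 to 0.177) in fresh adipose cells. In the bowel this ratio was 0.372 (0.327 to 0.422) in fresh cells, 12.3 (11.2 to 13.5) in M1 neurospheres, 262 (213 to 325) in tdTomato-positive spheroid cells and 367 (288 to 475) in M2 neurospheres, and 0.0222 (0.0185 to 0.0265) in tdTomato-negative spheroid cells. The ratio of reads is not corrected for length and is compared between libraries only. The make-up of the Trk reads also varied, with Ntrk2 giving 88.8% in fresh adipose cells and 25.2% in fresh bowel cells.

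**Figure D4:**
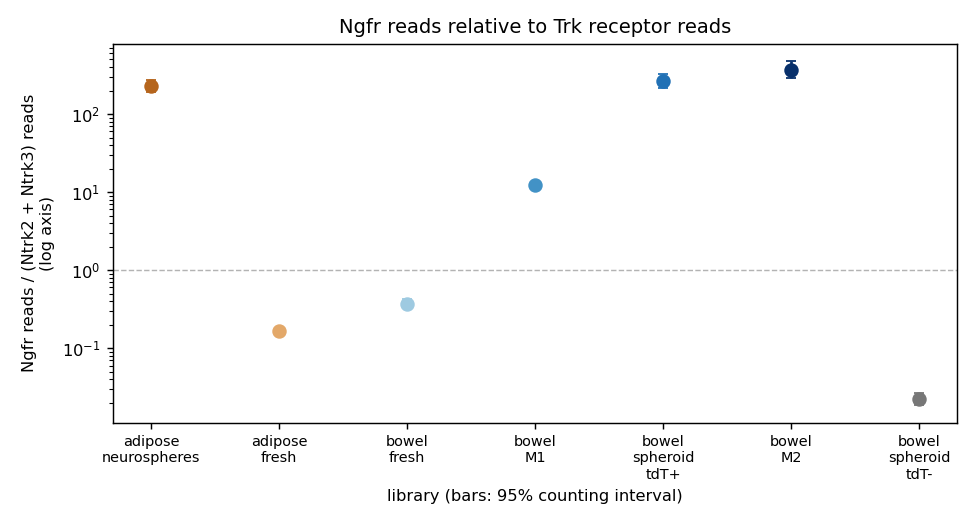
Ngfr reads divided by the summed Ntrk2 and Ntrk3 reads in each library, on a log axis, with 95% counting intervals as bars and a dashed line at a ratio of 1. The 4 cultured tdTomato-positive libraries lie between 12.3 and 367, and both fresh libraries and the tdTomato-negative cells lie below 1.

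Genes that act with the neurotrophins were counted in lists of proteases and inhibitors, sortilin relatives, p75NTR partners, Trk adaptors and Trk-responsive genes. The last list includes immediate early genes such as Arc. Its counts are not a measure of Trk signalling, which was not tested. In tdTomato-positive over tdTomato-negative spheroid cells, 1 of 12 measured protease and inhibitor genes was higher and 4 were lower (median log2 ratio -1.49), where 6.64% of all measured genes were higher and 12.5% lower. The extremes were Pcsk6, a proprotein convertase, with 14.3 CPM in tdTomato-positive and 0.464 CPM in tdTomato-negative cells, and Mmp9, a metalloprotease that can cut pro-neurotrophins, with 181 CPM in tdTomato-positive and 15546 CPM in tdTomato-negative cells. Of 27 measured Trk adaptor genes, 5 were higher and 2 lower (median 0.01). Shc4, an adaptor of the Shc family, had 579 CPM in tdTomato-positive and 9.11 CPM in tdTomato-negative cells, and Grb14, an adaptor of receptor kinases, had 273 CPM in tdTomato-positive and 4.55 CPM in tdTomato-negative cells. Shc2, another Shc adaptor, was lower, with 1.67 CPM in tdTomato-positive and 40.9 CPM in tdTomato-negative cells. Of 20 measured p75NTR partner genes, 0 were higher and 1 lower (median -0.09), of 3 sortilin relatives 1 was lower (Sorl1, log2 ratio -4.06), and of 16 Trk-responsive genes 1 was higher and 3 lower (median -0.57), with the immediate early gene Arc at -5.83.

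In adipose neurospheres over fresh adipose cells, 2 of 14 measured Trk-responsive genes were higher and 8 lower (median -3.04, beside -0.01 for all measured genes). Of all measured genes, 5.71% were higher and 20.8% lower, or 26.5% in either direction. The share of the p75NTR partners and of the Trk adaptors called in either direction was below 26.5%. Arc had 2.92 CPM in adipose neurospheres and 442 CPM in fresh adipose cells, while Dusp4, a phosphatase of MAP kinases, had 75.8 CPM in adipose neurospheres and 10.1 CPM in fresh adipose cells. Of 21 p75NTR partner genes, 2 were higher and 1 lower (median 0.09). Lingo1, a co-receptor of p75NTR, had 55.9 CPM in adipose neurospheres and 2.51 CPM in fresh adipose cells, and Traf4, an adaptor protein, had 123 CPM in adipose neurospheres and 21.1 CPM in fresh adipose cells. Of 12 protease and inhibitor genes, 1 was higher and 4 lower (median -0.29), and Pcsk6 had 0 reads in adipose neurospheres against 32.6 CPM in fresh adipose cells, at least 739.8-fold lower with a floor of 3 reads in the neurosphere library. Of 27 Trk adaptor genes 1 was higher, Shc4 (log2 ratio 3.30), and 1 lower (median 0.72). Of 4 sortilin relatives 2 were lower (median -3.06, or -2.77 with the gene at 0 reads held at its bound), among them Sorl1 at -5.74.

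In bowel M2 neurospheres over fresh bowel cells, 5 of 27 Trk adaptor genes were higher and 1 lower (median 0.87, beside -0.07 for all measured genes, of which 5.89% were higher and 21.0% lower). Grb10, an adaptor of receptor kinases, had 498 CPM in M2 neurospheres and 38.3 CPM in fresh bowel cells, and Shc4 had a log2 ratio of 3.36, while Shc2 had -3.27. Of 15 Trk-responsive genes 4 were higher and 8 lower (median -2.54), including Spry2, a feedback inhibitor of receptor kinase signalling, at 3.27 and Arc at -3.88. Of 12 protease and inhibitor genes 1 was higher and 5 were lower (median -0.76), including Serpini1 (neuroserpin), with 14.7 CPM in M2 neurospheres and 189 CPM in fresh bowel cells. Of 21 p75NTR partner genes 2 were higher and 3 lower (median 0.20), with Traf4 at 2.57 and Bex1 at -3.72. Of 4 sortilin relatives, Sorcs1 was higher at 2.47 and Sorl1 lower at -4.15 (median 0.39).

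Between the fresh libraries, adipose over bowel, 5 of 16 Trk-responsive genes were higher and 3 lower (median 1.62, beside 0.09 for all measured genes, of which 7.09% were higher and 11.4% lower). Arc had 442 CPM in fresh adipose cells and 20.2 CPM in fresh bowel cells, while Vgf, a gene for a secreted neuropeptide precursor, had 0.0781 CPM in fresh adipose cells and 14.4 CPM in fresh bowel cells. Of the other lists in this comparison, 1 of 12 protease and inhibitor genes was higher and 2 lower (median 0.30), 3 of 22 p75NTR partner genes were lower (median 0.46), 1 of 27 Trk adaptor genes was lower (median 0.03), and 0 of 4 sortilin relatives passed (median -0.62).

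Between the neurospheres, adipose over bowel M2, 3 of 4 sortilin relatives were lower (median -3.33, beside -0.01 for all measured genes, of which 5.33% were higher and 8.71% lower). Sorcs1 had 5.39 CPM in adipose neurospheres and 96.8 CPM in bowel M2 neurospheres, in the same direction as Sort1. Of the other lists, 1 of 11 protease and inhibitor genes was higher and 1 lower (median 0.61), 2 of 20 p75NTR partner genes were higher and 3 lower (median 0.01), 1 of 27 Trk adaptor genes was higher and 1 lower (median -0.52), and 1 of 14 Trk-responsive genes was higher and 4 were lower (median -1.28).

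For the 5 members that reached 10 CPM in a library, the genes with the most similar profile over the 7 libraries were taken from 12189 genes by the root-mean-square distance of centred log2 levels. These are descriptions of 7 points without replicates. Closest to Ngfr were Pcdh20, a protocadherin, at 0.47, Greb1 at 0.68 and Adgrl3, an adhesion receptor, at 0.74, where the median over all compared genes was 2.83. Pcdh20 had 979 CPM in adipose neurospheres and 29.96 CPM in fresh adipose cells, and 320 CPM in M2 neurospheres and 6.95 CPM in fresh bowel cells. Closest to Bdnf were Tenm3, a teneurin, at 0.66, Dok4, a docking protein, at 0.70 and Nkain1 at 0.71 (median 1.93). Closest to Sort1 were Tlr3, a Toll-like receptor, at 0.25, Hunk, a protein kinase, at 0.28 and Gca at 0.29 (median 1.24). Closest to Ntrk3 were Eps8l2 at 0.33, Stk26, a protein kinase, at 0.39 and Ptgir, the prostacyclin receptor, at 0.39 (median 1.89). Closest to Ntrk2 were Iglc1 at 0.49 and Iglv1 at 0.51, which are immunoglobulin light chain segments, and Slc36a2, an amino acid transporter, at 0.57 (median 2.64). Iglc1 had 18.4 CPM in fresh adipose cells and 15.2 CPM in tdTomato-negative spheroid cells, with 1.58 CPM in fresh bowel cells and at most 2 reads in the other 4 libraries, and copies of such segments can share reads.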

How the data were processed

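The values are CPM per Entrez gene, deposited by the authors for 7 libraries made with SMART-Seq v4 and Nextera XT, per the labels' protocols. The submitters' processing notes name HISAT, featureCounts, bcl2fastq 2.17 and mm10. Settings, annotation and strand use were not given in the sources used here. Every value of the deposited CPM table came out as whole reads within 0.05 read (100%), so reads were recovered. The reads carry no molecular identifiers, so reads amplified by PCR are not independent. 3 reads correspond to 0.0459 to 0.0578 CPM.

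Identifiers were matched to symbols with a RefSeq table of GRCm38 (25275 of 27179 matched). Bdnf and Sort1 share 14.4% and 4.47% of their exon bases with antisense genes, which the table does not list. Lengths came from a GENCODE annotation of the same assembly.

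Libraries were scaled by TMM (edgeR 4.0.16, R 4.3.3) over 16461 genes that reached 1 CPM anywhere. Log2 ratios had a prior count of 2 (ratios of low genes are therefore too small) and exact conditional binomial intervals. A count test on recovered reads needs replicates and was not possible. Profiles were compared as log2(scaled CPM + 0.5). Of the steps, only the log2 ratios, their intervals and the size rule were tested on simulated reads, drawn with Poisson counting error alone.

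The members, lists and comparisons were chosen with earlier results of these data known. Named genes were the 7 members and, per list and comparison, up to the 2 highest and 2 lowest past the size rule with at least 5 CPM. The text gives some of these, the marker genes and the 3 nearest profiles of each member. Other genes of the family and some single marker genes are not reported here. Alternatives were scaling by total reads or by DESeq2 1.42.0 size factors, other filters, a prior count of 0.5, a 2-fold rule and other bowel libraries. Scripts used scipy 1.17.1, numpy 2.4.6 and pandas 2.3.3 in Python 3.11.15, and plots matplotlib 3.10.9.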

Additional observations from a re-analysis of the deposited data

Results flagged for a closer look

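The Sort1 ratios of cultured over fresh cells had opposite signs in the 2 tissues. The log2 ratio was -1.87 in adipose neurospheres over fresh adipose cells, and 1.43, 1.22 and 1.41 in M1 neurospheres, tdTomato-positive spheroid cells and M2 neurospheres over fresh bowel cells. With 1 library per group the difference between the tissues was not tested. None of the 4 ratios passed the size rule, and all 4 passed the 2-fold rule.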

How the results depend on the processing

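No paired analysis was possible because each group had 1 library, and for the same reason no replicate could be left out. Over the 63 log2 ratios of the 7 genes in 9 comparisons, DESeq2 size factors, a prior count of 0.5 and no filter on low values kept every direction and every call. Scaling by total reads shifted all log2 ratios of a comparison together, by at most 0.46 (M1 neurospheres over fresh bowel cells), and ended 1 call, Ntrk2 in tdTomato-positive spheroid cells over fresh bowel cells (-1.85).

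A filter at 5 CPM in either library ended every call of Ntf5, the calls of Ntf3 in M1 neurospheres and tdTomato-positive spheroid cells over fresh bowel cells, and those of Ntrk2 in tdTomato-positive spheroid cells and M2 neurospheres over fresh bowel cells. It lowered the number of genes past the size rule to 1 between the fresh tissues (main value 2, 15.0%), to 1 in M1 neurospheres over fresh bowel cells (3, 19.6%), to 3 in tdTomato-positive spheroid cells over fresh bowel cells (6, 22.8%) and to 3 in M2 neurospheres over fresh bowel cells (5, 22.4%). In tdTomato-positive over tdTomato-negative spheroid cells 5 genes passed (6, 16.0%). The numbers in parentheses are the main value and the share of all measured genes that passed the changed rule. A rule of 2-fold raised it to 7 in M1 neurospheres over fresh bowel cells (3, 46.1%), to 5 in M2 over M1 neurospheres (3, 23.0%) and to 2 in M2 neurospheres over tdTomato-positive spheroid cells (1, 19.7%). It also raised it to 3 between the fresh tissues (2, 35.9%) and to 3 in adipose over bowel M2 neurospheres (2, 30.4%). Sort1 was added in adipose neurospheres over fresh adipose cells, and in tdTomato-positive spheroid cells and M2 neurospheres over fresh bowel cells.

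The tissue comparison of neurospheres depended on the bowel library. With M1 neurospheres in place of M2, 4 genes passed (17.9% of measured genes): Bdnf and Ngfr, higher in adipose neurospheres, and Sort1 and Ntrk3, lower. The Ntrk3 log2 ratio changed sign to -2.80 (-3.30 to -2.43). Those of Ntf3 (0.16, -0.37 to 0.70), Ntf5 (-1.19, -3.63 to 0.18) and Ntrk2 (-0.30, -0.75 to 0.13) also changed sign, with intervals that hold 0. With tdTomato-positive spheroid cells 1 gene passed (11.7%), Sort1. The Ntf3 ratio changed sign to 1.87 (1.20 to 2.85) and that of Ntf5 to -0.68 (-3.11 to 0.98), which holds 0, as does the main Ntf5 ratio of 0.70 (-1.60 to 4.67) on 4 and 2 reads. The cause was not tested. Taking all exons in place of the median coding transcript changed the first-ranked gene per kilobase in fresh adipose cells only. Single libraries limit all ratios, and genes with under 100 reads, above all Ntf5, are also limited by counting error.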
